A study of Mus musculus with 14 samples.

Results

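The microbead effect common to both APOE genotypes was estimated in microglia sorted from mouse retina, over all 14 libraries of the 14 in the series. The 6 libraries from microbead-injected retinas were compared with the 8 from sham-injected retinas in an additive model, in which genotype is a block and there is no interaction term. The groups were APOE E3/E3 sham (n = 4), APOE E3/E3 microbead (n = 3), APOE E4/E4 sham (n = 4) and APOE E4/E4 microbead (n = 3), all from mice aged 12 weeks, and each library is labelled as 1 retina. Per the labels' protocols, cells at the interface of a 37% over 70% Percoll gradient were stained, and the sort kept those that carried Fcrls and CD11b and lacked Ly6c. A retina gave 100 to 600 cells, adjusted to 100 to 300 cells in 5 µl of buffer. The labels state neither how the human APOE alleles were introduced nor the time after injection. They do not say whether the retinas came from separate animals, so p-values measure the spread between these libraries.

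Microglia are the resident macrophages of the retina. In a healthy eye they carry a homeostatic programme with purinergic receptors such as P2ry12 and the fractalkine receptor Cx3cr1. In injured or degenerating neural tissue they are known to lower that programme and to raise genes of disease-associated microglia, which serve uptake, lysosomal digestion and lipid handling, and in some settings genes induced by type I interferon. Microbeads injected into the front of the eye obstruct the outflow of aqueous humour and raise eye pressure, a model of glaucoma. APOE, a lipid carrier that microglia themselves make after injury, has E3 and E4 as common human alleles, and the additive model asks what the injection does in microglia of either genotype.

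Estimated reads per library ranged from 451287 to 727726, of which 38.5% to 65.3% fell on 12 genes at satellite repeats, leaving 226374 to 447190. Of markers of the labelled cell type, Cx3cr1, Csf1r and C1qa each had between 5688 and 16306 reads per treatment group, while Ly6c2, a target of the negative gate, had 12 reads over all sham libraries and 5 over all microbead libraries. Summed microglia and sort markers were at 13540 to 18450 CPM in sham, 14450 to 16650 in APOE4 microbead and 7666, 11650 and 12480 in APOE3 microbead, below the sham range, and markers of monocytes and macrophages, described below, were highest in that group. Mouse Apoe, the only Apoe gene in the transcript set, had 12 and 35 reads and was not tested. The APOE3 microbead libraries stood apart on the first principal component, which held 15.9% of the variance: they lay at 63.2, 35.8 and 21.6, against -3.86 to 8.54 for APOE4 microbead and -20.9 to -8.01 for sham. In bulk RNA, fewer cells of a type and less RNA per cell cannot be told apart. Levels are TMM-scaled CPM, and fold changes are log2, microbead over sham, with a standard error (SE). The SE is approximate: it is the size of the fold change divided by the square root of the F statistic of its test. An adjusted p is that of the edgeR quasi-likelihood test with Benjamini-Hochberg adjustment over the 7609 genes tested, and a gene is called where it is under 0.05.

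Microbead injection changed 279 genes in the additive model (3.67% of those tested), and most of the calls were increases: 211 genes were higher (2.77%) and 68 were lower (0.894%). By size, 124 genes rose and 24 fell by at least 2-fold. Genes with the smallest adjusted p among those that rose were C4b, Cd300lf, Adora1 and Cd72, and among those that fell Fam102b, Hpgd, Csmd3 and Adamts16. Because the effect is an average, it can come from 1 genotype. Of the 279 genes, 155 also had the same sign and an unadjusted p under 0.05 in each genotype taken alone, 122 of them higher and 33 lower. Among all genes tested, 2.23% had that property. These 155 are called the shared response here, as a description, since the within-genotype values come from the same libraries as the additive model.

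The other 124 called genes had an unadjusted p under 0.05 in 1 genotype. For 118 of them that genotype was APOE3, and for 6 it was APOE4. The effect was larger in APOE3 than in APOE4 for 229 of the 279 genes, and for 112 of the 155 in the shared response. The median size of the effect in called genes was 1.25 log2 units in APOE3 and 0.815 in APOE4, beside 0.334 and 0.277 over all genes tested. A single called gene, Lrg1, had opposite signs, and it had no reads in any APOE4 microbead library. Within genotypes, 396 genes were called in APOE3 (5.2%) and 17 in APOE4 (0.223%). The interaction, which tests the difference itself, was called for 7 genes (0.092%), of which Hpgd and Fgr were also called in the additive model. At an unadjusted edgeR p under 0.05, the threshold used for the shared response, the interaction held for 83 of the 279 called genes. It held for 623 of all 7609 genes tested. Over all 7609 genes the APOE3 and APOE4 effects, which share no library, had a Pearson r of 0.233 and a Spearman rho of 0.173, as a description across genes that are not independent.

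**Figure D1:**
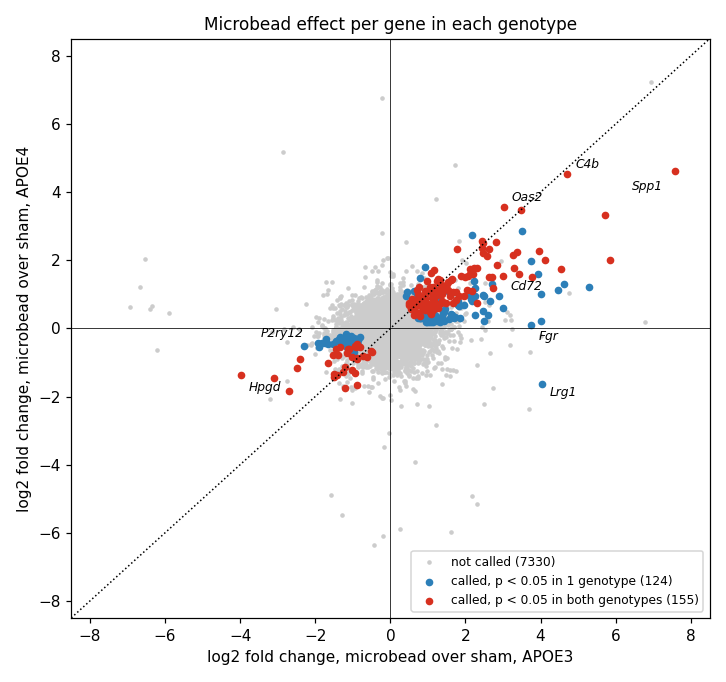
Microbead effect of each gene in APOE3 (x axis) and APOE4 (y axis), as log2 fold change over sham. Each point is a gene, red points are the 155 called genes with an unadjusted p under 0.05 in both genotypes, blue points the 124 called with it in 1 genotype, grey points the 7330 genes not called, the dotted line marks equal effects, and 2 genes lie outside the axes. Red points lie in the upper right and lower left, and 112 of the 155 have the larger effect in APOE3.

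Separation of single libraries is a further description of the called genes. It uses the same libraries and the same scaled levels as the model, so it is no independent test of the calls. For 112 of the 279 called genes, the 3 microbead libraries of each genotype all lay outside the range of its 4 sham libraries, on the same side in both genotypes (85 higher, 27 lower). Over all genes tested this held for 142 (1.87%). The stricter condition, that all 6 microbead libraries lay outside the range of all 8 sham libraries, held for 91 genes (1.2%), 71 higher and 20 lower, and 87 of them were called.

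C4b, which encodes the complement component C4 (ENSMUSG00000073418, on chromosome 17 from 34728380 to 34743882, GRCm38), had the smallest adjusted p of all genes. It was at 37.8, 5.27, 22.4 and 16.8 CPM in the APOE3 sham libraries and 8.97, 8.28, 19.6 and 5.66 in APOE4 sham. After microbeads it was at 466, 552 and 604 CPM in APOE3 and 139, 330.5 and 275 in APOE4. Every microbead library lay above every sham library, and the lowest of them was the first APOE4 library. The log2 fold change was 4.63 ± 0.28 (SE, adjusted p = 6.1e-10), with 4.72 ± 0.41 in APOE3 and 4.52 ± 0.45 in APOE4. C4b has a near-identical neighbour, C4a, so the estimated counts may divide reads between the pair.

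Cd300lf, a lipid-binding receptor of the CD300 family (ENSMUSG00000047798, on chromosome 11 from 115116214 to 115133992), was at 8.12 to 34.4 CPM in sham, at 138, 159 and 108 in APOE3 microbead and at 36.3, 68.1 and 70.8 in APOE4 microbead. Its log2 fold change was 2.42 ± 0.26 (SE, adjusted p = 1.26e-06), and no microbead library fell within the sham range. Adora1, the adenosine A1 receptor (ENSMUSG00000042429, on chromosome 1 from 134199223 to 134235431), was at 5.15, 3.51, 8.12 and 10.8 CPM in APOE3 sham and 10.8, 28.1, 12.4 and 3.77 in APOE4 sham, against 67.8, 60.1 and 83.5 and 54.5, 66.4 and 69.1 after microbeads. Levels of Adora1 after microbeads were alike in the genotypes, and its log2 fold change was 2.66 ± 0.29 (SE, adjusted p = 1.26e-06). Cd72, a lectin-like inhibitory receptor (ENSMUSG00000028459, on chromosome 4 from 43446462 to 43454628), was at 10.3, 24.6, 32.5 and 32.4 CPM in APOE3 sham and 70, 36.4, 33.8 and 45.3 in APOE4 sham. It was at 215, 185 and 204 CPM in APOE3 microbead and 133, 131 and 136 in APOE4 microbead. The 3 libraries within each microbead group lay close together, and Cd72 rose by 2.25 ± 0.25 (SE, adjusted p = 5.84e-06) over both genotypes. The effect was 2.99 ± 0.28 in APOE3 and 1.53 ± 0.27 in APOE4, and the adjusted p of the difference was 0.209.

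Fcgr4, an activating receptor for IgG (ENSMUSG00000059089, on chromosome 1 from 171018920 to 171029761), was at 22.3, 8.78, 36.6 and 26.4 CPM in APOE3 sham and 37.7, 39.7, 21.3 and 9.43 in APOE4 sham, and at 102, 132 and 94.1 and 78.7, 103 and 96.8 after microbeads. The groups did not overlap, and the log2 fold change was 2.00 ± 0.24 (SE, adjusted p = 1.08e-05). Of the 7 Fc receptor genes tested, 3 rose (42.9%, beside 2.77% over all genes) and none fell, and all 3 belong to the shared response. The other two are Fcgr2b, the inhibitory IgG receptor (1.22 ± 0.17, adjusted p = 4.07e-05), and Fcgr1, the high-affinity IgG receptor (0.60 ± 0.15, adjusted p = 0.02). Fcgr1 lost its call in 3 of the 14 fits that left out 1 library, those without APOE3 sham 3, APOE3 microbead 2 or APOE4 microbead 3, with an adjusted p of up to 0.0603. Cd244a, a receptor of the SLAM family, rose by 2.86 ± 0.34 (SE, adjusted p = 1.94e-05), with 1.89 to 23.2 CPM in sham and 36.3 to 133 in microbead. Cd63, a tetraspanin of late endosomes, lay at 118 to 176 CPM in sham and 235 to 478 in microbead libraries (1.3 ± 0.17, adjusted p = 1.9e-05).

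Lgals3bp, a glycoprotein that binds galectin-3, was at 75.5 to 314 CPM in sham and 321 to 975 in microbead libraries, and rose by 1.87 ± 0.22 (SE, adjusted p = 1.08e-05). Cxcl16, a chemokine made as a membrane protein, was at 38.6 to 61.8 and 84.7 to 209 CPM (1.43 ± 0.18, adjusted p = 1.1e-05). Spint1, an inhibitor of serine proteases, was at 49.8 to 103 and 138 to 211 CPM (1.27 ± 0.17, adjusted p = 3.6e-05). In each of these 3 genes the highest sham library lay below the lowest microbead library, and each effect was larger in APOE3 than in APOE4.

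**Figure D2:**
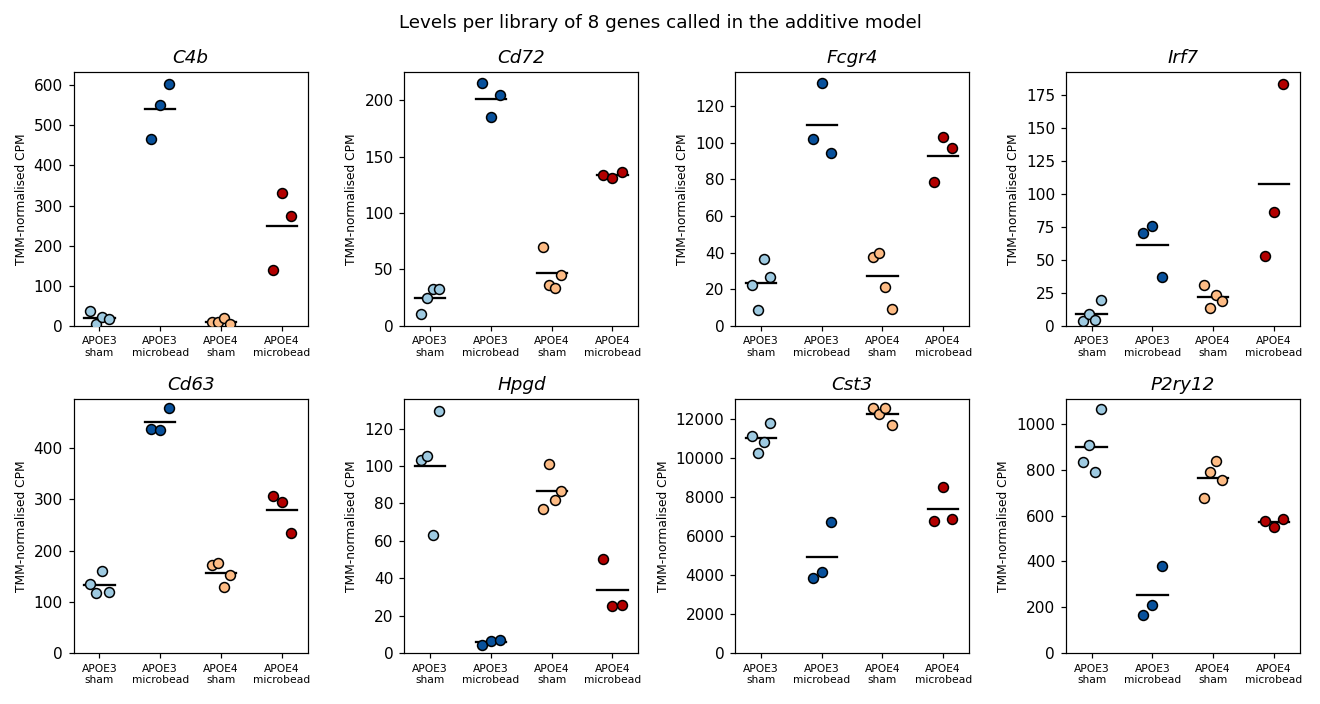
TMM-normalised CPM (y axis, linear from 0) of 8 called genes in each library, by genotype and treatment (x axis). Points are libraries and bars are group means. For C4b, Cd72, Fcgr4, Irf7 and Cd63 every microbead point lies above every sham point, for Hpgd, Cst3 and P2ry12 every microbead point lies below, and Hpgd and P2ry12 are lower in APOE3 than in APOE4 after microbeads.

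Genes induced by type I interferon, a cytokine signal best known from antiviral defence, rose, with close medians in the genotypes. Of 53 tested genes of the list, 29 rose (54.7%) and none fell, and 26 of these belong to the shared response. The median log2 fold change of the list was 1.11 in the additive model, 1.25 in APOE3 and 1.03 in APOE4, beside -0.0108, -0.0169 and -0.0029 over all genes. Summed over the list, sham libraries were at 1493 to 2626 CPM, APOE3 microbead at 4202, 4429 and 2870, and APOE4 microbead at 2783, 4406 and 5649. All 6 microbead libraries lay above all sham libraries, and the highest was an APOE4 library.

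Irf7, the transcription factor that amplifies interferon production (ENSMUSG00000025498, on chromosome 7 from 141262706 to 141266481), was at 3.44, 8.78, 4.06 and 19.2 CPM in APOE3 sham and 30.5, 13.2, 23.1 and 18.9 in APOE4 sham, against 70.1, 75.7 and 37.3 and 52.5, 86.4 and 183 after microbeads. The groups did not overlap, and the log2 fold change was 2.46 ± 0.32 (SE, adjusted p = 4.48e-05). Oas2, an enzyme that senses double-stranded RNA (ENSMUSG00000032690, on chromosome 5 from 120730333 to 120749853), was at 6.87 to 25.1 CPM in sham, 97.2, 105 and 47.9 in APOE3 microbead and 36.3, 156 and 238 in APOE4 microbead. It rose by 3.31 ± 0.41 (SE, adjusted p = 0.000194), and the effect was 3.02 ± 0.61 in APOE3 and 3.57 ± 0.58 in APOE4. Ccl12, a chemokine for monocytes, was at 18.9 to 96 CPM in sham and 169.5 to 362 in microbead libraries, with nearly equal effects of 2.47 in APOE3 and 2.51 in APOE4 (additive adjusted p = 0.000351). Ifi207, of the DNA-sensing Ifi200 family, rose by 2.5 ± 0.41 (SE, adjusted p = 0.000864), and Nlrc5, the transactivator of MHC class I genes, by 1.54 ± 0.28 (SE, adjusted p = 0.00116). Without both APOE3 microbead 1 and 2 the list had 11 of 54 tested genes called and a median of 0.954, and with a covariate for monocyte markers, described below, 0 of 53 called and a median of 0.886. Scaling by library totals and length offsets each left 15 of the 53 called, with medians of 1.02 and 1.13. A stricter filter, of at least 30 reads in at least 6 libraries, left 19 members tested and 11 called, with a median of 0.764.

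The next interferon-induced genes, chosen after their values were seen because their promoters are printed here, also rose. Ifit3, of the Ifit family, was at 0 to 39.7 CPM in sham and 54.5 to 135 in microbead libraries (1.7 ± 0.40, adjusted p = 0.0283). Rsad2, the antiviral enzyme viperin, was at 0 to 8.78 and 12.2 to 70.1 CPM (2.35 ± 0.51, adjusted p = 0.00698). Oas1a, of the same enzyme family as Oas2, was at 5.27 to 70 and 33.7 to 131 CPM (1.52 ± 0.38, adjusted p = 0.038), with overlapping groups. Leaving out 1 library ended the call of Ifit3 in 7 of 14 fits, of Oas1a in 9 and of Rsad2 in 1, that without APOE3 microbead 1. The fits that lost Ifit3 left out APOE3 sham 2 or 4, APOE4 sham 3, any APOE3 microbead library or APOE4 microbead 3, and those that lost Oas1a left out APOE3 sham 1, 3 or 4, APOE4 sham 3 or 4, APOE3 microbead 1 or 2, or APOE4 microbead 2 or 3. Oas1a and Ifit3 have close paralogues among which estimated counts may be divided.

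Interferon acts on such genes through an element in their promoters, the interferon-stimulated response element (ISRE). The letters searched were GAAA, any 2 bases and again GAAA, on either strand, in RefSeq promoter windows of GRCm38.p6, from 250 bases before to 50 bases after each gene's start. A gene was counted if any of its windows held them. Among genes with a window, these were 29 of 163 that rose (17.8%), 1 of 49 that fell (2.04%) and 256 of 5908 tested (4.33%). Over all 27025 genes with a window the share was 3.99%, and 3.44% of all 32851 windows held the letters. In the shared response the counts were 19 of 93 for genes that rose (20.4%) and 0 of 23 for genes that fell. Within the interferon list, 11 of 19 called genes with a window held the letters (57.9%), and so did 21 of 39 tested ones (53.8%). Outside it, 9 of 76 genes that rose in both genotypes held them (11.8%). The letters TTCNNNGAA, the gamma-activated sequence, were in a window of 10.8% of genes that rose in the shared response and of 8.14% of all tested. A match is a description of the letters and not evidence of binding.

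For 5 genes the stretch that holds the match is printed from the gene's strand, 5′ to 3′, from 160 to 5 bases before the start, with the matched letters in capitals. Fcgr4 (chr1:171018766-171018921, plus strand) is shown as a called gene outside the interferon list. Ifi207 (chr1:173741814-173741969, minus strand), Ifit3 (chr19:34583369-34583524, plus strand), Oas1a (chr5:120907530-120907685, minus strand) and Rsad2 (chr12:26456457-26456612, minus strand) are shown as members of it. Coordinates are of GRCm38.p6 and the sequences are those of RefSeq.
Fcgr4: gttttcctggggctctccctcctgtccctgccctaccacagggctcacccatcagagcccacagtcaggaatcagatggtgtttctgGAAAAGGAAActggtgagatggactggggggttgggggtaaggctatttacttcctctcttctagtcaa
Ifi207: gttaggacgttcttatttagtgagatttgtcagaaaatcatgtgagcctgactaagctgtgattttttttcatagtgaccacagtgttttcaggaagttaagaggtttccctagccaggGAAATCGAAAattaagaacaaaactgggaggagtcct
Ifit3: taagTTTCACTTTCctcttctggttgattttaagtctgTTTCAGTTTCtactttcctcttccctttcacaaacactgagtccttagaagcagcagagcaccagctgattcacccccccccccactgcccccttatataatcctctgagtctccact
Oas1a: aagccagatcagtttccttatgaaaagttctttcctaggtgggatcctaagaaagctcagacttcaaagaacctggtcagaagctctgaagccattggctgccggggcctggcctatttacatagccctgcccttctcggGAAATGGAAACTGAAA
Rsad2: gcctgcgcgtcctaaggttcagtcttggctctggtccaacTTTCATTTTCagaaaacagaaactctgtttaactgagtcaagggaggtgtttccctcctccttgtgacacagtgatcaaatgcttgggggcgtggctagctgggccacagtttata
Ifit3 holds 2 matches on the reverse strand, where the letters read as TTTC, and Rsad2 holds 1 there. In Oas1a 2 matches overlap on the printed strand. The single matches of Fcgr4 and Ifi207 are on the printed strand.

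Genes of antigen presentation serve to load peptides onto MHC molecules for T cells. Of 30 tested, 10 rose (33.3%), none fell, and 7 belong to the shared response, with a median of 0.56 (0.762 in APOE3, 0.357 in APOE4). H2-D1, a classical class I heavy chain, was at 484 to 940.2 CPM in sham and 1114 to 1981 in microbead libraries (1.12 ± 0.17, adjusted p = 0.000162). H2-K1, the other classical heavy chain, was at 259 to 553 and 632 to 1198 CPM (1.05 ± 0.18, adjusted p = 0.000509). Tap1, a subunit of the peptide transporter, rose by 0.91 ± 0.20 (SE, adjusted p = 0.0089). In all 3 genes no microbead library fell within the sham range. The count of calls was 6 without APOE3 sham 1, 5 without APOE3 microbead 2, and 5 without both APOE3 microbead 1 and 2. It was 4 with scaling by library totals, 4 with length offsets and 0 with the covariate for monocyte markers. Class I genes are near-identical in parts, so their estimated counts are uncertain.

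Complement genes, whose products tag synapses and debris for uptake, were led by C4b. Of 12 tested, 6 rose (50%, beside 2.77% over all genes), none fell, and 3 belong to the shared response, with a list median of 0.594. Itgam, the CD11b chain of complement receptor 3 and a gate of the sort, was at 144 to 314 CPM in sham and 344 to 521 in microbead libraries. It rose by 0.87 ± 0.17 (SE, adjusted p = 0.00199), and the effect was 0.74 in APOE3 and 1.01 in APOE4. C3, the central component, was at 38.4, 44.5 and 24.9 CPM in APOE3 microbead and 4.04, 6.64 and 1.73 in APOE4 microbead, against 0 to 8.97 in sham. Its call (2.47 ± 0.68, adjusted p = 0.0357) rested on APOE3, where the effect was 4.00, beside 0.22 ± 0.96 in APOE4. Itgax, the CD11c chain, was at 2.03 to 32.3 CPM in sham and 16.1 to 137 in microbead libraries (1.77 ± 0.45, adjusted p = 0.0401). C3 and Itgax each lost the call in 9 of the 14 fits without 1 library, C3 without APOE3 sham 1, 2, 3 or 4, APOE4 sham 4, APOE3 microbead 1, 2 or 3 or APOE4 microbead 2, and Itgax without APOE3 sham 1, 2 or 4, APOE4 sham 2, 3 or 4, APOE3 microbead 1 or 2 or APOE4 microbead 2. C5ar1 lay at the threshold, with an adjusted p of 0.05 after rounding. The number of calls in the list was 2 or 3 without any 1 of APOE3 sham 1, 2 or 3, APOE4 sham 3 or 4, APOE3 microbead 1 or 2, or APOE4 microbead 2, and 2 without both APOE3 microbead 1 and 2. It was 1 with scaling by library totals, 2 with length offsets and 1 with the covariate for monocyte markers.

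Calls among genes of disease-associated microglia were all increases, with a higher median effect in APOE3. Of 41 tested, 19 rose (46.3%), none fell, and 12 belong to the shared response. The median was 0.768 in the additive model, 1.28 in APOE3 and 0.43 in APOE4. Summed over the list, sham libraries were at 12230 to 15160 CPM, APOE3 microbead at 20890 to 29620 and APOE4 microbead at 17910 to 20730. The monocyte marker sum, described below, was also highest in APOE3 microbead, at 428 to 1891 CPM, and its part in this was not tested. Fabp5, a carrier of fatty acids, was at 0 to 12.6 CPM in sham, 61.1, 84.6 and 47.9 in APOE3 microbead and 10.1, 18.3 and 25.9 in APOE4 microbead (3.22 ± 0.48, adjusted p = 0.000258). Spp1, the secreted protein osteopontin, was at 0 to 3.6 CPM in sham and 391, 399.5 and 245 in APOE3 microbead, while the APOE4 microbead libraries held 0, 74.7 and 1.73. The additive effect was 6.96 ± 0.94 (SE, adjusted p = 0.0018). Spp1 is counted in the shared response, with an unadjusted edgeR p of 0.0169 in APOE4. There, 1 library of 3 lay above the sham range, so its place in the shared response rests on that library. Cst7, the protease inhibitor cystatin F, was called (1.8 ± 0.36, adjusted p = 0.00426) but not shared, and 2 of its APOE4 microbead libraries, at 13.3 and 13.8 CPM, lay within the sham range.

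Some members named as markers of this state did not pass the test. Lgals3, galectin-3, was at 235, 182 and 142 CPM in APOE3 microbead, 6.05, 6.64 and 24.2 in APOE4 microbead and 0 to 43 in sham (2.47 ± 0.83, adjusted p = 0.167). Clec7a, the receptor dectin-1, was at 37.4 to 82.8 CPM in sham and 31.6 to 101 in microbead libraries (-0.028 ± 0.23, adjusted p = 0.977). Without both APOE3 microbead 1 and 2, 10 of 44 tested members of the list were called, and with the monocyte marker covariate none of 41 was. Scaling by library totals left 8 of 41 called. The stricter filter on low counts left 26 members tested and 11 called higher, with a median of 0.461. With no filter, 21 of 49 were called higher and 1 lower, and the average of both genotypes' effects gave 19 and 1. Members with almost no reads in sham, such as Spp1, could pass the filter only through microbead libraries.

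Calls among lysosomal and phagocytic genes were all increases, with close median effects in the genotypes. Of 44 tested, 11 rose (25%), none fell, and 8 belong to the shared response, with medians of 0.343 in APOE3 and 0.294 in APOE4. Ctsb, the protease cathepsin B, was at 1159 to 1540 CPM in sham and 1928 to 2982 in microbead libraries (0.87 ± 0.15, adjusted p = 0.000598). Ctsl, cathepsin L, rose by 0.73 ± 0.15 (SE, adjusted p = 0.00387), and Grn, progranulin, by 0.62 ± 0.14 (SE, adjusted p = 0.00952). For all 3 the microbead libraries lay above the sham range, and for Ctsl and Grn the effect in APOE4 was the larger, at 0.84 and 0.75, beside 0.62 and 0.49 in APOE3. Axl, a receptor for apoptotic cells, was at 46.4 to 126 CPM in sham, 328, 365 and 236 in APOE3 microbead and 141, 218 and 237 in APOE4 microbead (1.55 ± 0.25, adjusted p = 0.000864). Ctsb, Ctsl and Axl are also counted among the genes of disease-associated microglia. Scaled by library totals alone, without TMM, 1 of the 44 was called, with length offsets 6 and with the covariate for monocyte markers none. There were 6 calls without APOE3 sham 1, 6 without APOE3 microbead 2, 7 without APOE3 sham 3 and 6 without both APOE3 microbead 1 and 2.

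Of 29 tested genes of cholesterol and lipid handling, 6 rose and 2 fell (27.6%), and 5 of the increases and 1 of the decreases belong to the shared response. Abca1, which exports cholesterol onto apolipoproteins, was at 23.3 to 54.6 CPM in sham and 49.8 to 119.9 in microbead libraries (1.19 ± 0.22, adjusted p = 0.00119). Plin2, a coat protein of lipid droplets, was at 8.28 to 27.5 and 20.7 to 74.5 CPM (1.43 ± 0.29, adjusted p = 0.00381). In both genes 1 or more microbead libraries lay within the sham range. The gene that fell in both genotypes was Hpgd, described below, and without both APOE3 microbead 1 and 2 the list had 2 higher and 1 lower. Library totals gave 3 and 1, length offsets 2 and 1, and the stricter filter, with 12 genes tested, turned the median from 0.146 to -0.159.

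Among 36 tested NF-kB targets and cytokines, 6 rose (16.7%), none fell and 4 belong to the shared response, Cxcl16 and Ccl12 among them. Tlr2, a receptor for bacterial lipoproteins, was at 59.6 to 118 CPM in sham and 119.6 to 197 in microbead libraries, without overlap (0.78 ± 0.16, adjusted p = 0.00448, with 0.75 in APOE3 and 0.81 in APOE4). Il1b, the cytokine interleukin-1 beta, was at 24.9, 21.1 and 28.4 CPM in APOE3 microbead and 4.04, 3.32 and 3.46 in APOE4 microbead, against 0 to 3.77 in sham. It was called in the additive model (3.32 ± 0.81, adjusted p = 0.0153), but its APOE4 libraries were within or near the sham range, and the call was lost without any 1 of the APOE3 microbead libraries. The list had 3 calls without APOE3 microbead 1, without APOE3 microbead 2 and without both, and 2 with scaling by library totals.

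**Figure D3:**
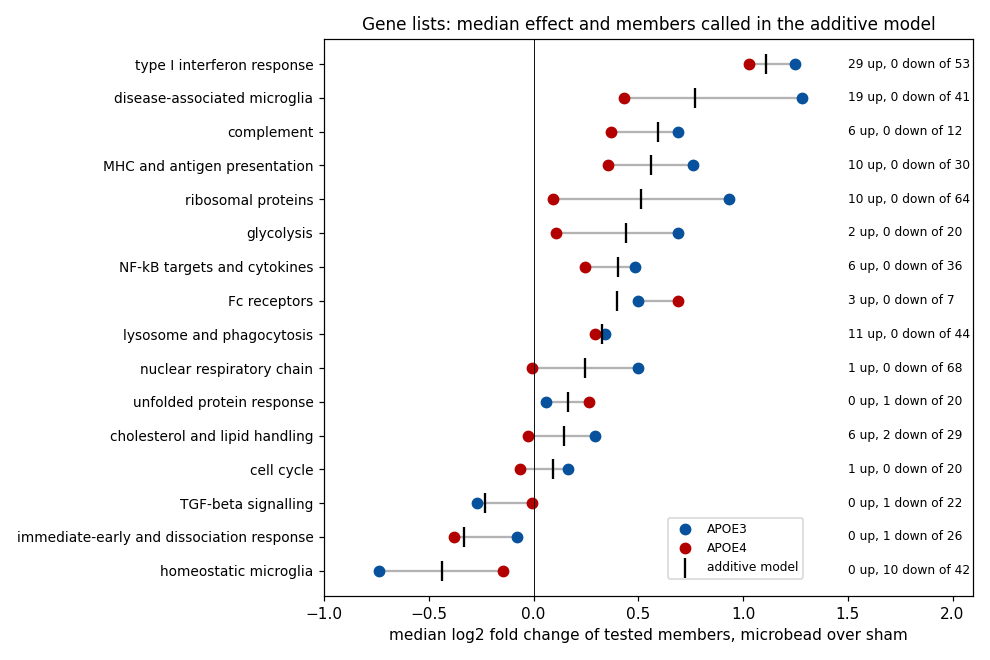
Median log2 fold change, microbead over sham (x axis), of the tested members of 16 gene lists (y axis), with APOE3 in blue, APOE4 in red and the additive model as a black tick. The text at the right counts members called higher and lower, and the interferon list has the highest median in the additive model, at 1.11, and the homeostatic list the lowest, at -0.437.

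Calls among homeostatic microglial genes were all decreases, with a lower median effect in APOE3. Of 42 tested, 10 fell (23.8%) and none rose, and 1 of them, Cst3, belongs to the shared response. The list median was -0.437 in the additive model, -0.739 in APOE3 and -0.147 in APOE4. Summed over the list, sham libraries were at 35450 to 43580 CPM, APOE3 microbead at 16300, 22480 and 27170, and APOE4 microbead at 32480 to 34300. Both microbead groups lay below the sham range. In APOE4 the mean sum was 37930 CPM in sham and 33170 in microbead libraries. The list member Cst3 alone had means of 12260 and 7369 CPM there, so a summed fall of the other members is not shown in APOE4. The order of the APOE3 libraries was the inverse of that of their monocyte marker sums (1891, 1114 and 428 CPM). The part of the marker-bearing cells in this was not tested. Cst3, the secreted protease inhibitor cystatin C (ENSMUSG00000027447, on chromosome 2 from 148871722 to 148875692), was at 11130, 10270, 10830 and 11800 CPM in APOE3 sham and 12540, 12260, 12570 and 11690 in APOE4 sham, and at 3840, 4133 and 6732 and 6757, 8497 and 6853 after microbeads. It fell by 0.95 ± 0.18 (SE, adjusted p = 0.00215), and the effect was -1.17 ± 0.22 in APOE3 and -0.73 ± 0.21 in APOE4.

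P2ry12, the ADP receptor that guides microglial processes (ENSMUSG00000036353, on chromosome 3 from 59216272 to 59262871), was at 833, 906, 788 and 1063 CPM in APOE3 sham and 676, 789.5, 838 and 756 in APOE4 sham. After microbeads it was at 167, 211 and 382 CPM in APOE3 and 577, 549.8 and 584 in APOE4. All 6 microbead libraries lay below all sham libraries, and the additive effect was -1.09 ± 0.23 (SE, adjusted p = 0.00612). The effect was -1.82 ± 0.22 in APOE3 and -0.42 ± 0.21 in APOE4, with an unadjusted p of 0.0534 in APOE4 and an adjusted p of the difference of 0.0598. Selplg, the P-selectin ligand, P2ry13, a further ADP receptor, and Mef2c, a transcription factor, also had the larger fall in APOE3. Additive effects were -0.74, -0.90 and -0.86, with -1.14, -1.45 and -1.34 in APOE3 and -0.36, -0.38 and -0.41 in APOE4. Adjusted p-values in the additive model were 0.0118, 0.00517 and 0.00517. Mef2c had all 6 microbead libraries below all sham libraries, while in Selplg and P2ry13 the treatments overlapped. Tmem119, a marker of microglia, was at 1166 to 1584 CPM in sham and 498 to 1543 in microbead libraries and did not pass the test (-0.48 ± 0.18, adjusted p = 0.17). Cx3cr1 was called (-0.63 ± 0.18, adjusted p = 0.0424) and lost the call in 10 of 14 fits without 1 library (APOE3 sham 1, 2, 3 or 4, APOE4 sham 3 or 4, APOE3 microbead 1, 2 or 3 or APOE4 microbead 2). Fcrls, the marker of the sort, did not pass (0.40 ± 0.20, adjusted p = 0.395). The list had 5 calls without APOE3 microbead 2, 6 without APOE3 sham 1, 2 or 3, and 2 without both APOE3 microbead 1 and 2. Length offsets gave 6 calls. With the covariate for monocyte markers none of the 42 was called, the list median turned to 0.0483 and the effect of P2ry12 was -0.19.

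Outside the homeostatic list, the genes that fell in both genotypes were of mixed function. Hpgd, the enzyme that inactivates prostaglandins (ENSMUSG00000031613, on chromosome 8 from 56294585 to 56321043), was at 63 to 129.5 CPM in sham, 4.52, 6.68 and 7.1 in APOE3 microbead and 50.5, 24.9 and 25.9 in APOE4 microbead. No microbead library reached the sham range, and the additive effect was -2.35 ± 0.35 (SE, adjusted p = 0.000619). The fall was deeper in APOE3: the effects were -3.97 ± 0.38 in APOE3 and -1.38 ± 0.30 in APOE4, and the adjusted p of the difference was 0.0209. Fam102b fell by 1.34 ± 0.22 (adjusted p = 0.000438), from 56.2 to 102 CPM to 14.5 to 38.2. Ighm, the heavy chain of IgM, was at 212 to 322 CPM in sham and 97.2 to 204 in microbead libraries (-0.94 ± 0.17, adjusted p = 0.00155). Summed B cell markers, of which Ighm held most reads, were at 288.8 to 382 and 124 to 288.6 CPM, so the ranges all but touched. The median effect of the B cell list was -1.03 in APOE3 and 0.0407 in APOE4. The defining B cell genes Cd79a and Igkc had at most 3 reads per treatment group, and the part of B cells in the fall of Ighm was not tested.

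Csmd3, a large membrane protein with complement-type domains (-1.51 ± 0.26, adjusted p = 0.000756) and Adamts16, a secreted metalloprotease (-1.97 ± 0.35, adjusted p = 0.00105), fell, each with at least 1 microbead library inside the sham range. Edem1, which directs misfolded glycoproteins to degradation, was at 97.7 to 146 CPM in sham and 22.6 to 103 in microbead libraries (-1.01 ± 0.21, adjusted p = 0.0047). It was the sole gene called of 20 in the unfolded protein response, whose median was 0.163. Fscn1, which bundles actin, fell from 62.9 to 112 to 9.05 to 62.6 CPM (-1.14 ± 0.25, adjusted p = 0.00761). Its lowest library, APOE3 microbead 1 at 9.05 CPM, stood far below the others, and its fold change was -0.73 without both APOE3 microbead 1 and 2 and -0.14 with the covariate for monocyte markers, neither of them called. Inka1, an inhibitor of the kinase PAK4, had almost the same effect in each genotype (-0.89 ± 0.30 in APOE3 and -0.89 ± 0.30 in APOE4, additive adjusted p = 0.0123). Itga9, an integrin chain, was close to that too (-1.5 ± 0.49 in APOE3 and -1.42 ± 0.48 in APOE4, additive adjusted p = 0.0115). Tmem201, a protein of the nuclear envelope, fell by 1.47 ± 0.35 (adjusted p = 0.0123), with overlapping groups.

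Among called genes that are not shared, the increases with the smallest p were led by Plbd1, a lysosomal phospholipase-like protein. It was at 54.3, 102 and 40.8 CPM in APOE3 microbead, 4.04, 6.64 and 1.73 in APOE4 microbead and 0 to 6.87 in sham (3.64 ± 0.54, adjusted p = 0.000106), with all APOE4 libraries within the sham range. Csf2rb, the shared receptor chain for GM-CSF, interleukin-3 and interleukin-5, had effects of 1.57 in APOE3 and 0.28 in APOE4 (additive adjusted p = 0.0042, difference 0.075). Pld3, a lysosomal nuclease, missed the shared response narrowly: its 6 microbead libraries, at 141 to 316 CPM, all lay above the sham range of 54.9 to 117, with an unadjusted p of 0.0518 in APOE4. Tpi1, a glycolytic enzyme, rose by 0.92 ± 0.19 (SE, adjusted p = 0.00415), with 1.39 in APOE3 and 0.37 in APOE4. Rasgrp3, which activates Ras, fell by 0.80 ± 0.18 (adjusted p = 0.00937), with -1.21 in APOE3 and -0.42 in APOE4. Mx1, an antiviral GTPase chosen after its values were seen, is among the 6 genes with an unadjusted p under 0.05 in APOE4 alone (0.91 in APOE3 and 1.82 in APOE4, additive adjusted p = 0.0358). The call of Mx1 ended in 9 of 14 fits, those without APOE3 sham 1, 3 or 4, APOE4 sham 2, 3 or 4, APOE3 microbead 1 or 2, or APOE4 microbead 3.

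Ribosomal protein genes had a higher median effect in APOE3 than in APOE4. Of 64 tested, 10 were called higher (15.6%) and none lower, and 1 belongs to the shared response. The medians were 0.512 in the additive model, 0.933 in APOE3 and 0.0909 in APOE4, and 63 of the 64 had a positive additive effect. Summed levels were 7011 to 10810 CPM in sham, 14320 to 18060 in APOE3 microbead and 10640 to 12510 in APOE4 microbead. In the APOE3 microbead libraries they had the same order as the monocyte marker sums. The interferon, antigen presentation and disease-associated sums were highest in APOE3 microbead 2 and lowest in APOE3 microbead 3, which also had the lowest marker sum. The lysosomal sum was highest in APOE3 microbead 2 and lowest in APOE3 microbead 1. An order of 3 libraries cannot settle the part of the marker-bearing cells in any list, which was not tested. Rpl19, Rplp0 and Rpl41 rose by 0.75, 0.68 and 0.77 (adjusted p = 0.0118, 0.0132 and 0.015). None of the 64 was called without both APOE3 microbead 1 and 2 or with scaling by library totals, 4 were called without APOE3 sham 1 or APOE3 microbead 2, 5 without APOE3 sham 3 and 6 without APOE3 sham 4 or APOE3 microbead 1. Length offsets gave 6, DESeq2 17, and the covariate for monocyte markers 0 with a median of 0.105. These genes have many pseudogenes, so reads may be divided. Glycolysis had 2 of 20 genes called higher, Tpi1 and Gpi1 (0.58 ± 0.16, adjusted p = 0.0358), and the nuclear genes of the respiratory chain 1 of 68, Cox4i1 (0.61 ± 0.16, adjusted p = 0.0225), a share of 1.47% beside the 3.67% over all genes. The glycolysis count was 7 of 22 without APOE4 microbead 1, 4 of 20 without APOE4 sham 1, and 1 without any 1 of APOE3 sham 1, 2, 3 or 4, APOE4 sham 4 or APOE3 microbead 2 or 3, and 0 with scaling by library totals. Leaving out 1 library ended the call of Gpi1 in 9 fits (APOE3 sham 1, 2, 3 or 4, APOE4 sham 3 or 4, APOE3 microbead 2 or 3 or APOE4 microbead 2) and of Cox4i1 in 3 (APOE3 sham 2 or 4 or APOE3 microbead 2).

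Other pathways had single calls. In TGF-beta signalling, which maintains homeostatic microglia, 1 of 22 genes was called: Zeb1, a transcriptional repressor, fell from 18.2 to 30.5 to 4.98 to 15.8 CPM (-1.11 ± 0.30, adjusted p = 0.0313). Of 26 immediate-early and dissociation response genes, which can be set by tissue handling, Rhob, a small GTPase, fell (-0.73 ± 0.20, adjusted p = 0.0317). Of 20 cell cycle genes, Cdkn1a, the inhibitor p21, rose from 6.62 to 27.6 to 18.2 to 76.9 CPM, with 1.52 ± 0.36 in APOE3 and 1.12 ± 0.44 in APOE4 (additive adjusted p = 0.00388). Leaving out 1 library ended the call of Zeb1 in 7 of 14 fits (APOE3 sham 1 or 3, APOE4 sham 1 or 4, APOE3 microbead 2 or 3 or APOE4 microbead 2) and of Rhob in 8 (APOE3 sham 3 or 4, APOE4 sham 2 or 4, APOE3 microbead 1 or 2 or APOE4 microbead 1 or 2), and that of Cdkn1a in none. These shares lie near the background of called genes.

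**Figure D4:**
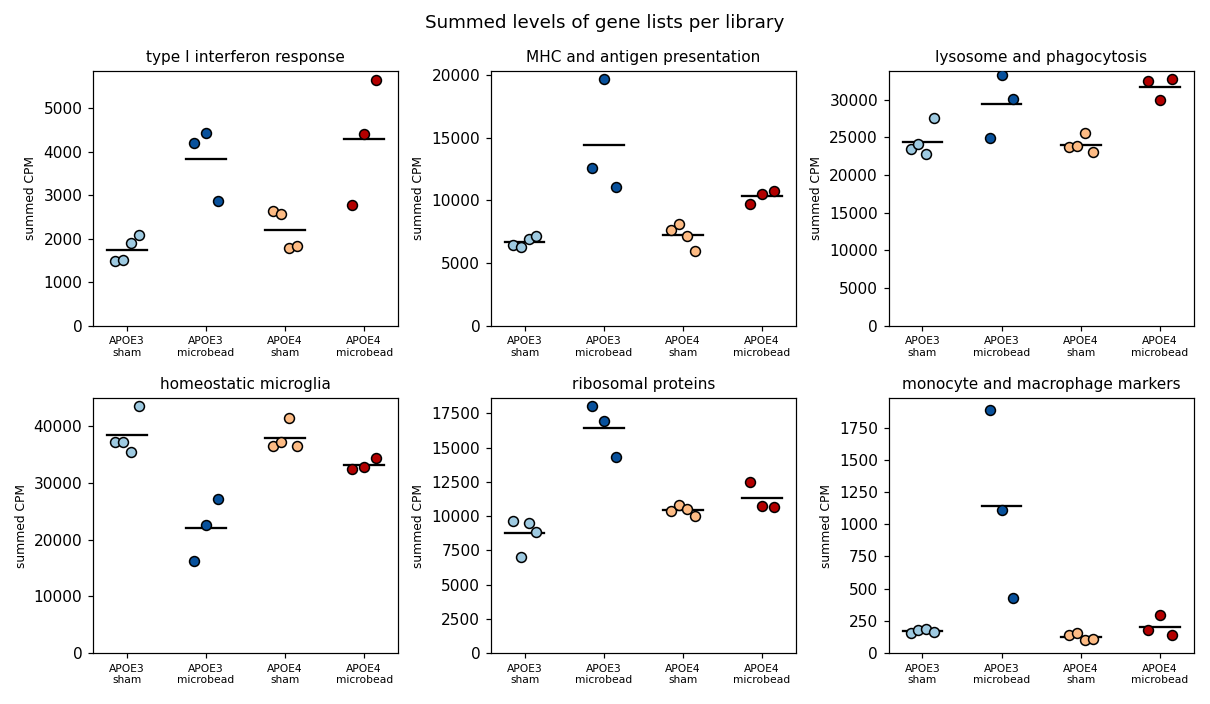
Summed TMM-normalised CPM (y axes, linear from 0) of 6 gene lists in each library by genotype and treatment, with bars at group means. Interferon and antigen presentation sums of all 6 microbead libraries lie above those of the 8 sham libraries, and homeostatic sums lie below them. In APOE4 the mean homeostatic sum is 37930 in sham and 33170 in microbead libraries, and its member Cst3 alone has means of 12260 and 7369. Ribosomal protein sums are highest in APOE3 microbead, and so are the monocyte and macrophage marker sums, at 1891, 1114 and 428.

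Markers of monocytes and macrophages other than microglia moved with the treatment, mainly in APOE3. Of 27 such genes, 5 passed the filter on low counts and 2 were called (40% of those tested, beside 3.67% over all genes). These were Ms4a7 (1.5 ± 0.31, adjusted p = 0.00448) and Cd44 (1.81 ± 0.41, adjusted p = 0.00899), neither of them shared. The summed level was 155 to 185 CPM in APOE3 sham, 99.6 to 157 in APOE4 sham, 1891, 1114 and 428 in APOE3 microbead, and 178, 299 and 140 in APOE4 microbead. The sort excluded Ly6c-positive cells. Of the reads behind the sum, Fn1, fibronectin, had 121 over all sham libraries and 1118 over all microbead libraries, Ccr2, a chemokine receptor of monocytes, 34 and 170, and Chil3 6 and 150. Ly6c2 had 12 and 5 reads, S100a8 0 and 3, and Lyz1 0 and 11. Fn1 was not called in the additive model (3.16 ± 0.86, adjusted p = 0.0792). Cd44 lost its call without APOE3 microbead 1. The part of these cells in the microbead effect was not tested.

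The gene groups were set beside these markers as a description. In APOE4 the marker sum was 99.6 to 157 CPM in sham and 178, 299 and 140 in microbead libraries, the first and second of them above the APOE4 sham range. The interferon sum of the APOE4 microbead libraries was 2783 to 5649 CPM, and C4b was at 139 to 330. With the log2 of the marker sum as a covariate, 7 genes were called over all 7609: Gcnt2, Cd72, Adora1, Cd300lf and C4b, and, chosen after their values were seen, Dusp7 and the pseudogene Rps2-ps10. The covariate is itself higher in 4 of the 6 microbead libraries than in any sham library, so covariate and treatment cannot be fully told apart. In the 16 pathway lists it left 1 call, that of C4b. Medians of 3 lists with 1 call each also changed sign with it, to -0.117 for the respiratory chain, 0.172 for immediate-early genes and -0.0467 for the cell cycle. Without both APOE3 microbead 1 and 2, which have the highest marker sums, 75 genes were called, 67 of them among the 279, and 62 of the 75 met the condition of the shared response. The spread of the APOE3 microbead group, then 1 library, is assumed there to be that of the other groups.

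Apart from the B cell markers given above, whose ranges all but touched, summed markers of other cell types overlapped between the treatments. T and NK cell markers had no gene tested, with summed levels of 22.3 to 38.1 CPM in sham and 18.3 to 54.3 in microbead libraries. Rod photoreceptor transcripts, which come with the dissociation of retina, summed to 429 to 2836 CPM in sham and 389 to 1102 in microbead libraries, and none of 18 tested genes was called. Of 3 Müller glia and astrocyte markers tested, Vim, vimentin, was called (3.56 ± 0.77, adjusted p = 0.0231). It was at 142, 157 and 49.7 CPM in APOE3 microbead, 8.07, 26.6 and 8.64 in APOE4 microbead and 0 to 16.1 in sham, and 6 of the 14 fits without 1 library ended the call (APOE3 sham 2, 3 or 4, APOE3 microbead 1 or 2 or APOE4 microbead 2). The defining genes Gfap, Aqp4 and Rlbp1 had at most 6 reads per treatment group.

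The call of a gene depended on the libraries and settings to different degrees. Over the 14 fits without 1 library, between 153 genes (without APOE3 microbead 2) and 298 (without APOE4 microbead 1) were called, and 124 genes, 104 higher and 20 lower, were called in all of them. C4b, Cd72 and Gcnt2 were called in each of 27 alternatives. Gcnt2, a glycosyltransferase chosen for that reason after its values were seen (ENSMUSG00000021360, on chromosome 13 from 40859754 to 40960892), was at 10.8 to 54.9 CPM in sham and 58.5 to 128 in microbead libraries (1.4 ± 0.22, adjusted p = 0.000194). Its effect was larger in APOE4 than in APOE3, at 1.71 and 1.16. Scaling by library totals gave 98 calls and offsets for transcript length 113.

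**Figure D5:**
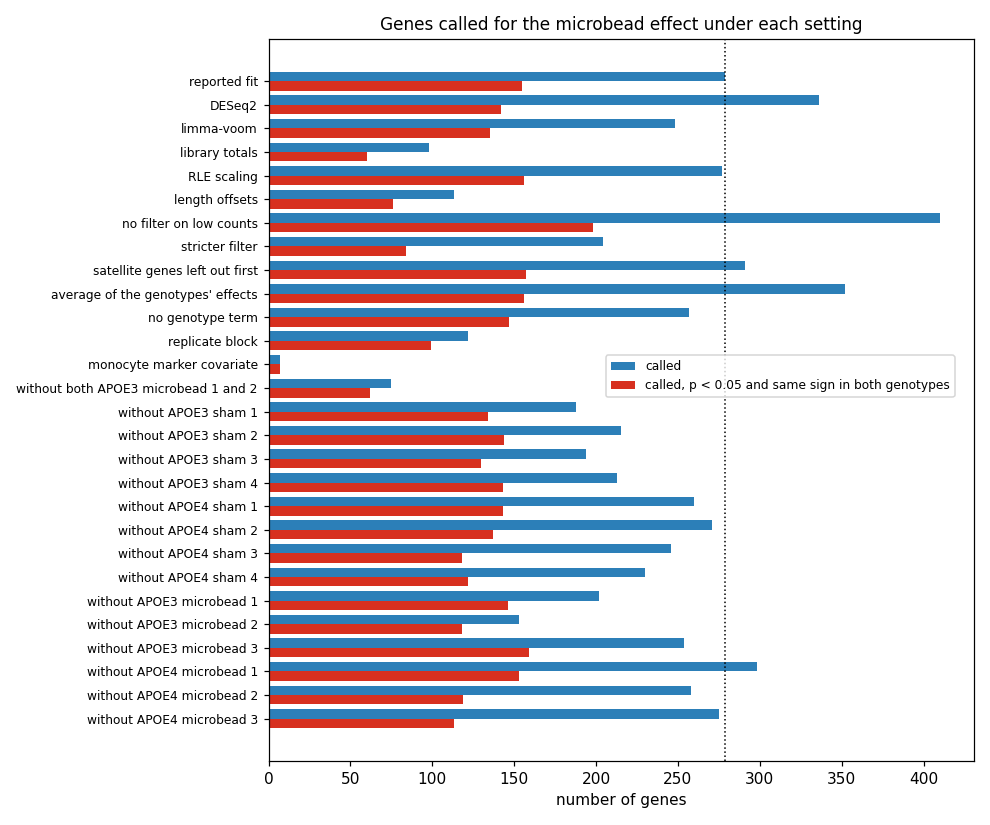
Number of genes (x axis, from 0) called in the additive model, blue, and called with the same sign and an unadjusted p under 0.05 in both genotypes, red, under the reported fit and 27 alternatives (y axis). The dotted line marks the reported 279, and the covariate for monocyte markers gives the lowest bars, with 7 and 7.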

How the data were processed

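Expression was measured by SMART-Seq2 libraries of sorted cells. The submitters' processing notes name Salmon 1.4.0, the mm10 build, DESeq2 1.30.1 and R 4.0.3, with no further settings. The deposited files give estimated counts, TPM and effective length per transcript, and the deposited series table gives TPM per gene. Library labels were checked by comparing gene TPM between the files: 99.2% to 99.4% of genes lay within 1% in the matching column, against at most 2.11% elsewhere.

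Estimated counts were summed per gene with GENCODE M21 (GRCm38) and rounded. Of 116945 transcripts, 922 had no gene there, with at most 0.43% of a library's reads. Genes passed filterByExpr (minimum count 10, total 15), which left 7609 of 28197 with a read. The additive model (genotype and treatment) and a model of 4 group means were fitted with edgeR 4.0.16 (R 4.3.3, robust quasi-likelihood, TMM, two-sided). The common biological coefficient of variation was 0.283. Scripts were tested on simulated counts.

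Named genes are the 12 higher and 12 lower shared genes of smallest p, 5 and 5 not shared, up to 4 members per list, a fixed reference set, and those said to be chosen after their values were seen. Members and lists were chosen with earlier results of these data known. Lists overlap, and genes such as H2-D1, Fabp5 and Ccl12 are counted in each list that holds them, so list counts are not independent. A few genes that these rules name are not reported here. Alternatives were DESeq2 1.42.0, limma-voom (limma 3.58.1), other scalings and filters, satellite genes left out, other designs, a monocyte covariate and libraries left out.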

Additional observations from a re-analysis of the deposited data

Results flagged for a closer look

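Over 178 groups of 4 sham libraries (89 genes), 5 had 1 library far from the rest, fewer than the rate of about 1 in 20 that chance gives, so the count itself does not set these libraries apart. In APOE3 sham, library 1 had 22.3 CPM of Cd244a against 6.09 to 7.20 in the others, and 259 CPM of H2-K1 against 366 to 374. In APOE4 sham, library 1 had 25.1 CPM of Oas2 against 7.11 to 8.28. Lrg1, a secreted glycoprotein chosen after its values were seen, was at 8.12 CPM in APOE3 sham library 3 and 1.89 in APOE4 sham library 4, with no reads in the other sham libraries, and its additive call was lost in 6 of 14 fits (APOE3 sham 1, 2 or 4 or APOE3 microbead 1, 2 or 3). In Cd244a and Oas2 the outlying sham library still lay below every microbead library, and H2-K1 was lower in it than elsewhere.

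The microbead effect differed between genotypes for 3 genes named here, by the interaction of the edgeR model, given as the APOE4 minus the APOE3 effect. For Hpgd the difference was 2.59 (adjusted p = 0.0209), from -3.97 in APOE3 to -1.38 in APOE4, so the fall in the additive model is an average of unequal falls. For Fgr, a Src-family kinase chosen after its values were seen, it was -3.64 (adjusted p = 0.0154): 58.8, 70.1 and 44.4 CPM in APOE3 microbead, 14.1, 18.3 and 19 in APOE4 microbead and 1.2 to 18.2 in sham, and its additive call (1.84, adjusted p = 0.0392) is an average of unequal effects and was lost in 8 of 14 fits without 1 library (APOE3 sham 1, 2, 3 or 4, APOE4 sham 3 or APOE3 microbead 1, 2 or 3). For Zfp280d, a zinc finger protein, it was -2.12 (adjusted p = 0.0154). Zfp280d was at 48.4, 38.2 and 27.6 CPM in APOE4 microbead against 159.7, 189, 164 and 143 in APOE4 sham and had an effect of 0.011 in APOE3, and it was not called in the additive model (adjusted p = 0.226).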

How the results depend on the processing

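Of 279 calls and 155 shared genes, DESeq2 gave 336 and 142, with 278 of its calls among the 279, limma-voom 248 and 135, RLE scaling 277 and 156, no genotype term 257 and 147, and satellite genes left out 291 and 157. Library totals gave 98 and 60 and moved the median over all genes to -0.131, length offsets gave 113 and 76, the stricter filter (2002 genes) 204 and 84, no filter 410 and 198, and the average of both genotypes' effects 352 and 156. The monocyte covariate gave 7 and 7, and leaving out both APOE3 microbead 1 and 2 gave 75 and 62. Leaving out 1 library gave 153 to 298 calls and 113 to 159 shared genes. With the replicate number as a block, 122 genes were called and 99 shared. Same-numbered libraries within a genotype had deviations correlated at -0.12 to 0.087 in 6 pairs, and none exceeded 0.1. In 54 pairs of libraries from different groups with unlike numbers the range was -0.16 to 0.22. With so few pairs this cannot settle whether the numbers pair the libraries. The cause of these changes was not tested, apart from fewer genes or libraries in the filters and omissions.

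Of 83 named genes called, 5 kept their call in every alternative that gave a value, namely C4b, Cd72, Gcnt2, Adora1 and Cd300lf. The covariate ended 77 calls, leaving out both libraries 38, library totals 29, length offsets 25 and the block 23, and 62 genes kept their call in all fits without 1 library. None of the 83 reversed. Of uncalled genes, Clec7a changed sign, to 0.020 with no genotype term and between -0.28 and 0.12 without 1 library, and Tmem119 to 0.059 under the covariate. At 226374 to 447190 reads per library outside satellite repeats, 7609 genes passed the filter on low counts, and 7330 to 8320 did without 1 library.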

Other observations

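Some called genes outside the lists were chosen after their values were seen. In Hmox1, Slc39a14, Tspo, Slc2a6 and Fgl2 all 6 microbead libraries lay above all 8 sham libraries. Hmox1, the heme-degrading enzyme, was at 8.78 to 19.6 CPM in sham and 24.9 to 43 in microbead libraries, with 1.43 in APOE3 and 1.17 in APOE4 (edgeR adjusted p = 0.00517). Slc39a14, an importer of zinc and iron, was at 3.6 to 13.2 and 14.2 to 38.4 CPM (adjusted p = 0.00799). Tspo, an outer mitochondrial membrane protein used as an imaging target for activated microglia, was at 18.9 to 57.9 and 60.5 to 219 CPM, with 1.84 in APOE3 and 0.96 in APOE4 (adjusted p = 0.000529). Slc2a6, a sugar transporter, was at 10.7 to 40.4 and 44.4 to 90.1 CPM, with 1.54 in APOE3 and 1.36 in APOE4 (adjusted p = 0.000106). Fgl2, a fibrinogen-like protein, was at 3.77 to 18.3 and 20.2 to 77.9 CPM (adjusted p = 0.000493). Hcar2, a receptor for niacin and ketone bodies, had effects of 1.62 in APOE3 and 1.41 in APOE4 (adjusted p = 0.000106), with 1 APOE4 microbead library, at 30.3 CPM, within the sham range of 16.2 to 38.4.

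Below the sham range in all 6 microbead libraries lay Il1rl2, the receptor for interleukin-36, at 40.6 to 59.7 CPM in sham and 16 to 32.8 in microbead libraries (-0.90 in APOE3 and -0.86 in APOE4). Inpp4b, a phosphoinositide phosphatase, was at 14.2 to 28.3 and 4.52 to 14.1 CPM, with equal effects in the genotypes (-1.27 in APOE3 and -1.28 in APOE4). Ache, acetylcholinesterase, was at 12 to 28.4 and 3.34 to 11.3 CPM (-1.5 in APOE3 and -1.35 in APOE4). Adjusted p-values were 0.0186, 0.0196 and 0.0232. Leaving out 1 library ended the calls of Il1rl2 in 2 of 14 fits (APOE3 microbead 3, APOE4 microbead 2), of Inpp4b in 2 (APOE3 microbead 1, APOE4 microbead 2) and of Ache in 4 (APOE3 sham 3 or 4, APOE4 sham 4, APOE3 microbead 2). Dusp7, a phosphatase of the kinase ERK, fell in both genotypes (-0.88 in APOE3 and -1.66 in APOE4, adjusted p = 0.0174), with APOE3 microbead 1, at 33.9 CPM, within the sham range.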
